A study of Mus musculus with 12 samples.

Results

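The stretch of mouse chromosome 7 from 13 to 46 Mb (chr7:13000000-46000000, mm10) was described in the brains of 12 mice by reduced representation bisulfite sequencing (RRBS). Its members were all CpG rows in that interval in any of the 12 libraries, 70521 of 207310 rows on chromosome 7 and of 3134555 on the autosomes and X. Of them, 18862 were listed in all 12 animals. The interval had been chosen on missing rows and on methylation levels that jump between animals, so both are given as a description with no test. Levels were compared between genotypes by test, but levels entered the choice, so those tests are not independent of it. The labels named 4 wild-type (Wt) and 8 Tg2576 (Tg) animals, about 11 months old: among Wt 3 females and 1 male, and among Tg 4 of either sex. Tg2576 mice carry a prion-promoter transgene for human APP with the Swedish familial Alzheimer's disease mutation, and no agent was given to any group. Tissue was hippocampus and cortex together, so values average over cell types. Animals came from a commercial supplier, and no source used here gave their genetic background. Replicate numbers only name an animal.

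RRBS cuts DNA with MspI at CCGG, and a fragment is sequenced only if both of its ends are cut and its length falls in the selected range. Bisulfite turns unmethylated cytosines into uracil, read as T, so a T in the genome and a converted cytosine look alike at 1 position of 1 strand. The proximal part of chromosome 7 is rich in genes and holds gene families that arose by local duplication. The annotation placed 748 protein-coding genes in the stretch, with 56 zinc finger (Zfp) symbols, 88 vomeronasal Vmn1r symbols, 37 kallikrein (Klk) symbols and the Apoe cluster.

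Total coverage per library ran from 33619981 reads at cytosines (Tg female 4) to 131446104 (Tg female 1), and rows in the stretch from 28615 to 59521. The smallest coverage listed was 10 reads, so a missing row means under 10 reads, not none. Wt female 2 stood apart everywhere, with 8.09% of expected positions missing on the autosomes other than chromosome 7 against 0.353% to 1.68% in the other 11. Chromosome X coverage in the library labelled Wt male was 0.997 of the median of the animals labelled female, whereas the 4 Tg males lay between 0.664 and 0.750. That library goes against its label, and the main counts and differences are also given without it. The trio-low sites and the fragment lengths were not computed without it.

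Sequences of 7 fragments without a row in the same 3 animals show what was absent. These animals were Wt female 1, the library labelled Wt male and Tg male 2, called the trio from here on. The fragments lay in or near genes with varied roles. Lig1 encodes a DNA ligase, Bloc1s3 and Trappc6a parts of vesicle-trafficking complexes, Six5 a homeobox factor, Xrcc1 a DNA break repair scaffold and Tgfb1 a growth factor. The sequences are from the mm10 reference on the plus strand, and capitals mark the CCGG at each end.
Lig1 and Zswim9, promoter, chr7:13278383-13278442: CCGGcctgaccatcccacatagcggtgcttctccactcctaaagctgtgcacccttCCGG
Six5, promoter, chr7:19094773-19094826: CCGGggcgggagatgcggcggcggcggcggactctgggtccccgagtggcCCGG
Bloc1s3 and Trappc6a, promoter, chr7:19508304-19508359: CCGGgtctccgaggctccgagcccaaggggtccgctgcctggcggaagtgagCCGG
Xrcc1, promoter, chr7:24547153-24547242: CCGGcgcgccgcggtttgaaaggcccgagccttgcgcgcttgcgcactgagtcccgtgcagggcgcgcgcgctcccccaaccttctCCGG
Tgfb1, intron, chr7:25689335-25689379: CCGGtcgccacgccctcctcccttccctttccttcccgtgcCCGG
Gm2058, promoter, chr7:39588904-39588950: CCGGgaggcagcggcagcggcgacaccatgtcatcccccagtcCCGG
Gm38199, intergenic nearby, chr7:40134178-40134235: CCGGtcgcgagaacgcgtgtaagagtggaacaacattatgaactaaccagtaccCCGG

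Expected positions without a row were more frequent in the stretch than on the rest of chromosome 7 in each of the 12 animals. A position was expected in an animal where at least 3 animals listed it and at least 30 reads were predicted from the depth of that library. The missing share in the stretch was 2.70%, 8.60% and 2.16% in Wt female 1 to 3, and the library labelled Wt male had 2.45%. Tg females had 1.21%, 1.01%, 0.805% and 0.954%, and Tg males had 0.791%, 3.39%, 1.86% and 1.24%, each in the order of replicate 1 to 4. On the rest of chromosome 7 the Wt shares were 1.11%, 8.18%, 0.716% and 0.706% in the same order, and the Tg shares ran from 0.287% to 1.70%. The excess was largest in the trio and in Wt female 3, at 2.03 points in Tg male 2, 1.74 in the library labelled Wt male, 1.58 in Wt female 1 and 1.44 in Wt female 3. The other 8 animals had an excess of 0.0309 to 0.920 points. Over the 12 animals the excess averaged 0.873 ± 0.665 points (SD, n = 12).

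**Figure D1:**
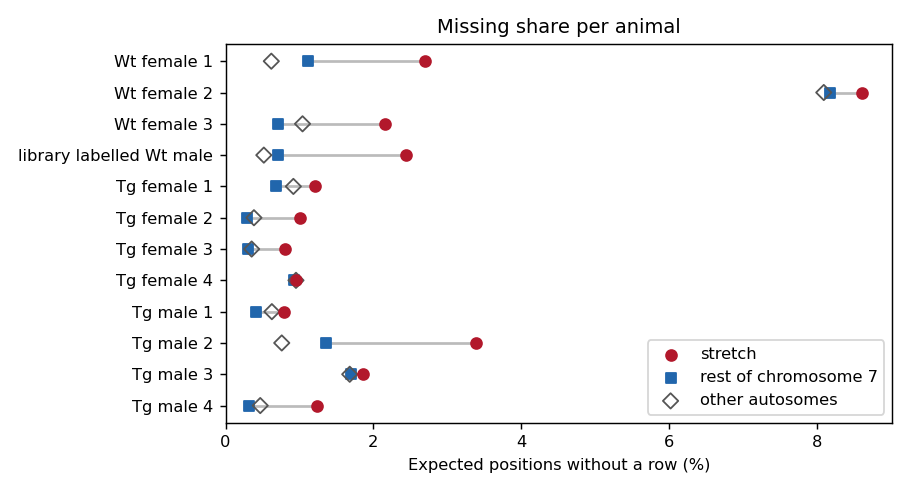
Share of expected CpG positions without a row (x axis, percent) in each animal (y axis) for the stretch (circles), the rest of chromosome 7 (squares) and the other autosomes (open diamonds); a line joins the first and second. The circle lies to the right of the square in each of the 12 animals, and Wt female 2 is high in all 3 places.

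Genotype groups overlapped in the missing share. The mean was 3.98% ± 3.09 in Wt (SD, n = 4) and 1.41% ± 0.870 in Tg (SD, n = 8), a difference of -2.57 points as Tg minus Wt. Tg male 2 at 3.39% lay above 3 of the 4 Wt animals. Wt female 2 set much of the difference, which was -1.06 points without that library and -3.12 points without the library labelled Wt male. The difference was not particular to the stretch. On the rest of chromosome 7 the means were 2.68% ± 3.67 in Wt (SD, n = 4) and 0.748% ± 0.538 in Tg (SD, n = 8). Shares in shallow libraries rest on fewer positions. Expected positions in the stretch numbered 1468 in Tg female 4 and 5434 in Tg male 1, against 22710 to 31358 in the Wt animals.

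Missing positions were not spread evenly along the stretch. The 1-Mb window with the highest share was 21 to 22 Mb, with 22 of 40 expected counts missing over all animals (55.0%), in a part with few expected positions. Just inside the near end, the window from 13 to 14 Mb had 1.31%, and the window just outside it, from 12 to 13 Mb, had 1.76%. Without Wt female 2 these were 1.24% and 0.0288%. The low share just outside did not hold farther out. Without Wt female 2, the windows from 7 to 12 Mb had 5.26% to 15.2%, on 19 to 2011 expected counts each over all animals. Those from 3 to 7 Mb had 0.509% to 1.12%. At the far end the pattern did not stop at the border, since the window from 45 to 46 Mb had 3.97% and the window from 46 to 47 Mb had 5.08%. Other parts of the genome had such shares as well. Among 772 autosomal bins of 3 Mb, taken without Wt female 2, 6 of the 11 bins of the stretch were in the highest 77, and the highest bin of all, on chromosome 4, had 16.3%. On chromosome 7 outside the stretch, the bins that begin at 7 and 49 Mb had 10.2% and 5.01%. They ranked 3 and 9, above every bin of the stretch, where the best rank was 12. The median was 1.93% over the bins of the stretch and 0.620% over all bins.

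**Figure D2:**
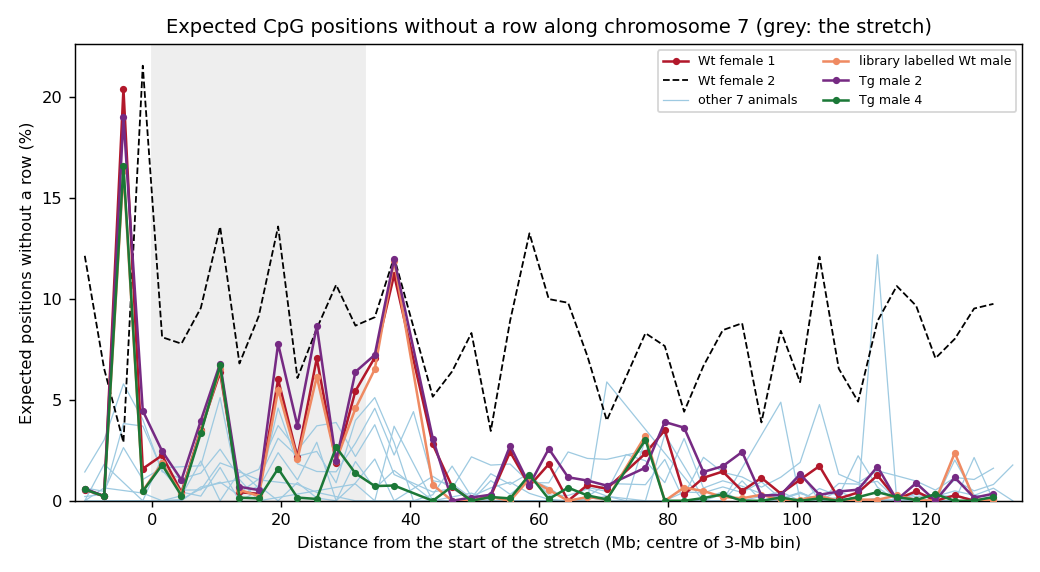
Share of expected positions without a row (y axis, percent) in bins of 3 Mb along chromosome 7 (x axis, Mb from the start of the stretch, which is shaded), with bins of under 100 expected positions in an animal left out. Wt female 1, the library labelled Wt male and Tg male 2 move together in and just beyond the stretch, Tg male 4 joins them only in its first part, and Wt female 2 (dashed) is high along the whole chromosome.

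The most frequent shared set of missing animals in the stretch was the trio. Of 3908 positions missing in any animal, 224 were missing in the trio alone and 163 in the trio and Tg male 4, against 124 and 27 of 6541 on the rest of chromosome 7. In all, 536 of the 24417 positions expected in all 3 animals had no row in any of them (trio-absent, 2.20%). The share over all autosomes was 0.0934%. The boundaries of the interval did not bound this set. From 46 to 50 Mb 185 of 2152 positions were trio-absent (8.60%), from 50 Mb to the end of the chromosome 9 of 48610 (0.0185%), and before 13 Mb 41 of 3458 (1.19%). On the other autosomes the share was 0.0300%. Without the library labelled Wt male, 643 positions were missing in both remaining animals, and the counts rose more elsewhere, from 235 to 530 on the rest of chromosome 7 and from 330 to 1657 on the other autosomes. The trio holds 2 of the 4 Wt and 1 of the 8 Tg animals.

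Absence usually covered whole fragments. The trio-absent positions lay in 137 MspI fragments, of which 84 had no row in any trio animal (61.3%). Only 8 of these 84 had a neighbour across a shared cut site that was absent as well. By position, 72 of the 137 fragments were in a promoter (within 1000 bp of a transcription start), 31 were intergenic, 23 intronic, 9 in a coding exon and 2 in a non-coding exon.

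At the trio-absent positions, coverage in the 9 animals outside the trio differed between animals and along the stretch. Coverage here is relative to the depth-scaled median of the listing animals at each position. These listing animals were all among the 9 and set the expected coverage, so a level near 1 in some of them follows from the choice, and the levels are a description. The stretch is described on both sides of 25 Mb, a point set after the values were seen. Over the 30 fragments with at least 2 trio-absent positions before it, the median was 1.30 in Wt female 3, 1.28 in Tg female 3, 1.21 in Tg female 4 and 1.19 in Wt female 2. In Tg female 1 it was 0.644, in Tg male 3 it was 0.636, in Tg male 1 it was 0.606 and in Tg female 2 it was 0.548. Tg male 4 had no median coverage at 29 of the 30 fragments. By median, 4 animals were thus near or above the level of 1, 4 were between 0.548 and 0.644, and 1 was like the trio. Single fragments spread more widely. Fragments at 0 numbered 10 in Tg male 1, 7 in Tg female 2 and 6 in Tg female 4. There were 3 in Tg female 1, 3 in Tg male 3, 1 in Wt female 2, 1 in Tg female 3 and 0 in Wt female 3. A position without a row counts as 0 here, although it can hold up to 10 reads.

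Beyond 25 Mb the same animals had other levels. Over 54 fragments the median in Tg male 4 was 0.601, and 5 fragments were at 0. Tg female 2 had 17 fragments at 0, Wt female 2 had 9, Tg female 4 had 9, Tg male 3 had 7 and Tg male 1 had 3. Tg female 1 had 1.15 and Tg male 1 had 1.17, close to Wt female 3 with 1.05, Tg female 3 with 1.03 and Tg female 4 with 1. Tg female 2 had 0.489 and Tg male 3 had 0.495, much as before. Wt female 2 had 0.915, and 0.581 and 0.396 in the 3-Mb bins that begin at 46 and 49 Mb. For Tg male 4 the change fell between the fragment that starts at 24638288, the last one without coverage before 25 Mb, and the fragment in the Tgfb1 intron that starts at 25689335. The expected positions of the stretch outside both sets gave medians of 0.815 to 1.07 in the 12 animals, so these levels did not hold for the stretch as a whole.

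Single fragments are given next, and they did not all show the same levels. At the 4 positions of the Lig1 fragment, depth-scaled coverage was 74.3 in Wt female 2, 73.2 in Wt female 3, 61.5 in Tg female 3 and 57.8 in Tg female 4. It was 38.4 in Tg female 2, 32.1 in Tg female 1, 31.9 in Tg male 3 and 29.4 in Tg male 1, with no row in the trio or Tg male 4. These 2 sets of 4 animals did not overlap. The Six5 fragment, with 16 positions, had 85.2, 62.2, 54.4 and 50.7 in Wt female 2, Wt female 3, Tg female 3 and Tg female 4, and 23.9 to 33.6 in Tg male 3, Tg female 1, Tg female 2 and Tg male 1. Again the trio and Tg male 4 had no row. In the Xrcc1 fragment, with 28 positions, the 2 sets overlapped. Tg male 1 had 49.6, beside Tg female 3 at 49.7, Tg female 4 at 48.7 and Wt female 3 at 45.6, and Wt female 2 had 34.8, beside Tg male 3 at 34.3, with 27.3 in Tg female 1 and 26.2 in Tg female 2.

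Past 25 Mb, Tg male 4 listed most such fragments. Near Gm38199, however, Tg male 4 had no row, and neither did Tg female 2. In the Tgfb1 intron Tg male 4 had 40.2, with Wt female 2 at 68.5, Tg female 4 at 67.9, Tg female 3 at 51.4 and Wt female 3 at 41.4. The lowest animals with rows were Tg female 1 at 28.7, Tg male 1 at 26.9, Tg female 2 at 24.2 and Tg male 3 at 16.0. In the Gm2058 promoter, with 4 positions, Tg male 1 at 67.3 and Tg female 1 at 55.7 were among the highest, beside Tg female 4 at 68.9, Wt female 2 at 62.8, Wt female 3 at 49.7 and Tg female 3 at 42.0. There Tg male 4 had 40.2, Tg female 2 had 23.6 and Tg male 3 had 12.8.

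Methylation did not set these fragments apart as a kind. Where they were listed, 6 of the 7 printed fragments had read-weighted levels of at most 11.3%, for example 0 to 0.351% in the Xrcc1 promoter and 0 to 3.85% in the Gm2058 promoter. The fragment near Gm38199 had 87.3% to 100% in the 7 animals that listed it. A fragment in a Hpn intron, not printed but also without a row in the trio, had 21.3% to 68.4%. Among these few fragments, absence thus occurred at unmethylated and at methylated places. Levels over all 137 fragments were not compared with those of other fragments, and the trio has no level there.

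The rule for named fragments took, in each 3-Mb bin, the one with the highest depth-scaled coverage among those lacking every row in at least 1 animal expected to list them, and 4 of the 11 fragments lacked rows in the whole trio: those at Lig1, Bloc1s3, Gm2058 and Gm38199. In 5 bins (Prkd2, Gm26550, Sertad1, Chst8 and Akt1s1) the fragment was missing in Wt female 2 alone, the Ccer2 fragment was missing in Wt female 2 and Tg female 4, and the Gramd1a fragment in Tg female 4 alone. The other printed fragments (Six5, Xrcc1 and Tgfb1) were chosen after their values were seen. Over all MspI fragments of 40 to 220 bp with at least 2 expected positions in an animal, 261 of 3031 in the stretch and 414 of 5874 on the rest of chromosome 7 lacked every row in at least 1 animal.

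A reverse pattern was counted by a looser rule, since only 1 animal had to lack a row. At 600 of 29620 positions listed by the whole trio and expected in Wt female 3, the deepest Wt library outside the trio, Wt female 3 had no row (trio-present, 2.03%). The share over all autosomes was 0.5%, and on the rest of chromosome 7 it was 0.447%. On the other autosomes it was 0.468%, against 0.0300% for trio-absent positions. The shares of the 2 sets in the stretch thus stand beside unlike backgrounds. The other 8 animals entered the choice only through the expected coverage, which is taken from all listing animals. Tg male 4 listed 90.8% of these positions, Tg male 3 80.8%, Tg female 2 64.3% and Tg female 1 58.2%. Far fewer were listed by Wt female 2 with 27.3%, Tg male 1 with 24.3%, Tg female 3 with 14.3% and Tg female 4 with 6.17%. In the bin that begins at 19 Mb the median relative coverage was 1.03 in Tg male 4, 0.615 in Tg female 1, 0.508 in Tg male 1, 0.599 in Tg male 3 and 0.581 in Tg female 2, with 0 in Wt female 2, Tg female 3 and Tg female 4. In the bin that begins at 43 Mb, Tg male 4 had 0.669, Tg male 3 had 0.695 and Tg female 2 had 0.532, with 0 in Tg female 1, Tg male 1, Tg female 3, Tg female 4 and Wt female 2. In these 2 bins the animals that were low at trio-absent positions had coverage at trio-present positions. Bins with few positions did not all do so. In the bin that begins at 16 Mb Tg female 3 had 0.909 at 8 trio-absent and 1.21 at 25 trio-present positions, and in the bin that begins at 31 Mb Tg male 4 had 0.750 at 8 and 0 at 7.

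**Figure D3:**
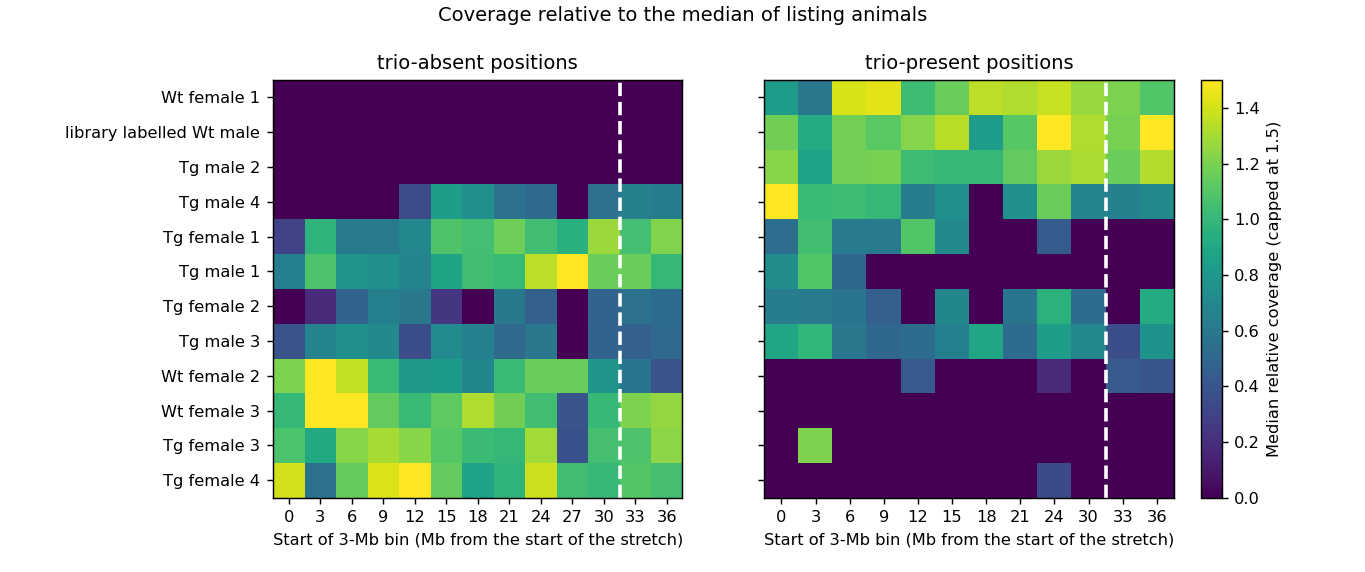
Median coverage relative to the listing animals (colour, 0 to 1.5) for each animal (rows) in bins of 3 Mb (columns, Mb from the start of the stretch; bins with fewer than 5 positions left out, and bins right of the dashed line lie beyond it), at trio-absent positions on the left and trio-present positions on the right. In the bins with most positions Tg male 4 goes from 0 to intermediate on the left and from high to intermediate on the right, whereas Tg female 1 and Tg male 1 go from intermediate to high on the left and to 0 on the right.

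The 2 sets differed in the length of their mm10 fragments, which neither choice had used. Trio-absent positions lay in fragments with a median of 77 bp (quartiles 55.8 and 98.3), close to the 90 bp of other expected positions in the stretch, and 90.1% of them in fragments of 40 to 220 bp. Trio-present positions lay in fragments with a median of 338 bp (quartiles 210.0 and 661), and 71.7% of them in fragments over 220 bp, against 1.44% of other expected positions. Base differences between the animals and the reference were not tested here. Rows at positions that are no CpG in mm10 were 83 of 70521 in the stretch and 213 of 136789 on the rest of chromosome 7.

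A small number of sites had methylation levels that set the trio apart. At 17 of the 18862 sites listed in all 12 animals, each trio animal had at most 10% and Wt female 3 at least 60% (trio-low). The share was 0.0901% in the stretch, 0.00446% on the rest of chromosome 7 and 0.00227% over all autosomes. The converse, at least 60% in the trio and at most 10% in Wt female 3, was met by 1 site in the stretch, against a share of 0.000824% over all autosomes. Without asking for a row in the other 8 animals, 114 of 39196 sites in the stretch were trio-low and 7 were the converse. The shares over all autosomes were 0.0117% and 0.0078%. On the other autosomes the counts turned round, with 68 trio-low sites and 130 converse sites of 1711948.

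Some of these sites are shown with 20 bases on either side, plus strand of mm10, and the CpG in capitals. Plaur encodes the urokinase receptor and Gramd1a a sterol carrier.
Plaur, intron, chr7:24466809-24466850: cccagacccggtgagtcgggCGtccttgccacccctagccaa
Gramd1a, intron, chr7:31130569-31130610: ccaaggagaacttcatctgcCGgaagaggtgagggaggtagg
Gm22707, intergenic nearby, chr7:43198315-43198356: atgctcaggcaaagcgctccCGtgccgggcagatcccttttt

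At the Plaur site the minus strand read 0% in the trio and in Tg male 4. Wt female 2 had 87.0%, Wt female 3 82.6%, Tg female 3 82.6% and Tg female 4 100%, and Tg male 1 80%. Between them lay Tg male 3 with 59.1%, Tg female 1 with 55.6% and Tg female 2 with 46.7%. Coverage there was 10 to 56 reads per animal.

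Farther along, at the Gramd1a site, the trio again read 0%, while Tg male 1 had 100% and Tg female 1 had 96.7%. Tg female 3 had 92.0%, Wt female 3 77.4%, Tg male 4 73.9%, Wt female 2 70.4%, Tg female 2 68.9%, Tg female 4 66.7% and Tg male 3 51.9%. Tg male 3 was the lowest outside the trio there and near Gm22707, where the levels were 100% in Wt female 2, Tg female 1 and Tg female 3, 96.4% in Wt female 3, 92.3% in Tg female 4, 85.7% in Tg male 1, 70% in Tg male 4, 66.7% in Tg female 2 and 50% in Tg male 3, with 0 in the trio.

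Over the wider set of 114 sites, levels in the animals that did not enter the choice also changed along the stretch. Before 25 Mb the median level was 0% in Tg male 4 (33 sites), 32.8% in Tg female 1 (34), 30.8% in Tg female 2 (22), 37.6% in Tg male 3 (30) and 40% in Tg male 1 (12). It was 75% in Wt female 2 (23), 86.3% in Tg female 3 (22) and 87.5% in Tg female 4 (13). From 25 Mb on it was 37.5% in Tg male 4 (61 sites), 40% in Tg female 2 (45) and 34.8% in Tg male 3 (51), against 83.3% in Tg female 1 (73), 85.7% in Tg male 1 (37), 70.4% in Wt female 2 (33), 100% in Tg female 3 (53) and 85.7% in Tg female 4 (21). Neighbouring sites share fragments and reads, so the sites are not independent.

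By levels at the few trio-low sites listed in all animals, the change in Tg female 1 and Tg male 1 came later than that in Tg male 4. At the 5 trio-low sites listed in all animals between 27007616 and 28828085 (near Cyp2a12, a cytochrome P450, and in Samd4b and Ech1), Tg female 1 had a median of 48.5% (33.3% to 55.4%) and Tg male 1 41.5% (30.8% to 61.5%). At the 6 sites between 31130589 and 45541127 these were 93.1% (77.8% to 100%) and 92.9% (41.7% to 100%). Tg male 4 had 0% (0 to 6.45%) at the first 6 sites and 36.4% (16.7% to 69.2%) at the next 5.

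Where it was listed, the opposite strand mostly met each limit of the pattern, taken alone. Of the 17 trio-low sites, 10 had the opposite strand listed in the trio and Wt female 3. In 8 of these the opposite strand was at most 10% in each trio animal, and in 8 it was at least 60% in Wt female 3. At the site in the Tescl promoter, animals outside the trio had 0 to 64.1%, and 6 of the 9 were under 20%.

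Large jumps of level between animals were also counted. A switch site, listed in all 12 animals with at least 80% in one and at most 20% in another, was found at 178 of 18862 sites, or 9.44 per 1000 (95% Wilson interval 8.15 to 10.9, counting error only). The rest of chromosome 7 had 6.87 per 1000 (6.14 to 7.68). All autosomes had 0.698% of sites, that is 6.98 per 1000. The stretch was chosen on such jumps, and neighbouring sites share fragments and reads. The intervals are therefore no test of the stretch against the rest, and nothing is read from their distance. The shallowest library, Tg female 4, with a median of 20 reads per site in the stretch, held the highest level at 27 and the lowest at 31 of the 178 sites. Wt female 1, with a median of 57 reads, held the lowest at 31 as well. All 3 trio animals read at most 20% at 22 of the 178 sites, of which 15 were trio-low. When every animal had to have 20 reads or more, 3 of 6329 sites were left, or 0.474 per 1000. Of the limits tried, this one moved the count most, and the rest of chromosome 7 was not counted at it.

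The switch sites named by rule, 1 per 3-Mb bin where the opposite strand was also listed in all animals, were found in 10 of the 11 bins. At the sites in Mzf1, Zfp541 and Scaf1 and near Tgfb1, 1 animal stood apart on that strand and not on the other. In the Lrfn1 UTR (Lrfn1 encodes a synaptic adhesion protein) the plus strand had 100% in Tg male 1 and 0 in Tg female 3, where the minus strand had 50% and 54.5%. Both strands set the trio apart at the site 36896531 near Tshz3, a zinc finger homeobox gene, although other animals differed between strands. There both strands read 0% in the trio, Tg female 1 had 70% and 72.7% on the minus and plus strand, and the remaining 8 animals had 6.25% to 100% and 22.4% to 57.1%.

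Mean methylation over the 18862 sites listed in all animals did not separate the genotypes. Wt animals had 8.16%, 7.29%, 7.52% and 7.02%, the last in the library labelled Wt male. Tg animals ran from 7.08% to 8.18% with a mean of 7.50% ± 0.346 (SD, n = 8), against 7.50% ± 0.488 in Wt (SD, n = 4), and the groups overlapped. The difference as Tg minus Wt was -0.00340 points (two-sided exact permutation test over 495 assignments, p = 0.994). Leaving out the library labelled Wt male gave -0.154 points (exact permutation p = 0.600). Methylation levels entered the choice of the stretch, so these p-values are no independent test and no conclusion is drawn from them. Levels were higher in the stretch than on the rest of chromosome 7 in each of the 12 animals, by 1.45 to 2.02 points.

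Between genotypes, the binomial model, which takes reads as independent draws, called 409 of 18862 sites in the stretch as differentially methylated sites (DMS; adjusted p under 0.1 and at least 10 points), 221 of them higher in Tg. That is 2.17%, beside 1.62% on the rest of chromosome 7 and 1.72% over all 980547 sites tested (0.928% higher in Tg). The overdispersion model, which lets animals of a group differ, called 0 sites in the stretch and 0% of all sites. It gave an unadjusted p under 0.05 at 2108 sites of the stretch (11.2%), beside 10.9% of all sites. Without the library labelled Wt male the binomial model called 374 sites (1.98%, beside 1.37% of all sites). Without Wt female 2 it called 546 (2.62%, beside 2.08%). Methylation levels entered the choice of the stretch, so nothing is read from its share.

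**Figure D4:**
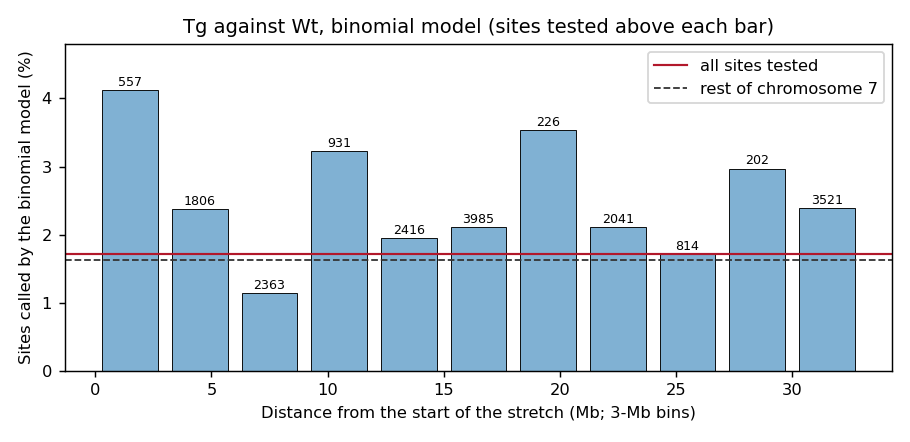
Share of sites called by the binomial model (y axis, percent) in each 3-Mb bin of the stretch (x axis, Mb from its start), with the number of sites tested above each bar; the solid line is the share over all sites and the dashed line that on the rest of chromosome 7. The bars run from 1.14% to 4.13%, and the highest bar rests on 557 sites.

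Among the trio-low sites, the binomial model called 7 of the 17, at Plaur, Samd4b (2 sites), Gramd1a, Gm12756, Ctu1 and Plekha4, each on the side of higher levels in Tg. These sites were chosen for low levels in the trio, which holds 2 of the 4 Wt animals. The choice bears on both the count and its direction, so nothing is read from them beside the 1.72% over all sites. At the Gm12756 site the read-weighted difference was 25.8 points, with an adjusted p of 1.33e-16 in the binomial model and 0.452 in the overdispersion model. Levels there were 0% in the trio, 100% in Wt female 3 and 75% in Wt female 2, so Wt animals lay at both ends. The median dispersion was 12.6 over the trio-low sites and 1.36 over the stretch. The presence of 2 of 4 Wt animals in the trio moves with these calls, and its part in them was not tested.

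Promoters of the listed genes, 1000 bp on either side of a start, were mostly unmethylated in all animals. Calls of the binomial model in each list stand beside its share of 2.17% in the stretch and 1.72% over all sites. The lists were picked with earlier results known and most of their promoters were near 0%, so nothing is read from these counts. Of the 11 genes of the Apoe cluster, which encodes lipid carriers and their neighbours, 8 had promoter sites in all 12 animals and 7 of these had a Wt mean under 10%. Apoe, the main lipid carrier of the brain, had 2.57% in Wt and 2.24% in Tg. Apoc1 was the exception, with 30.3% in Wt and 36.8% in Tg over 3 sites. The binomial model called 2 of 312 sites of the cluster (0.641%), in Apoc1 (12.1 points, adjusted p = 0.0237) and Cblc (-11.2 points, adjusted p = 0.0199), and the overdispersion model neither (0.451 and 0.749). Trio-present positions lay in 2 of these promoters, 8 in Nectin2 and 6 in Bcam, and trio-absent positions in the bodies of Cblc (4) and Bcl3 (5). Aplp1, a relative of APP, had 0.862% in Wt and 0.678% in Tg over 31 sites, with 7 trio-present positions in its promoter and no DMS.

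Of the 16 neuronal channel, receptor and synaptic genes, 15 had promoter sites, all with a Wt mean under 10%. The binomial model called 2 of 757 sites (0.264%), in Kcna7 (-11.2 points) and Lrfn1 (12.1 points). Trio-absent positions fell in the promoter or body of 9 of the 16, among them Slc17a7 (9 positions), the vesicular glutamate transporter. Trio-present positions fell in 8 of the 16, with 50 in Kcna7, a potassium channel. Among all 748 protein-coding genes of the stretch these counts were 90 and 94 (12.6% for trio-present positions), but only 550 of the 748 had rows. Trio-absent positions also fell in 3 of the 11 transcription factor genes and 2 of the 11 Apoe cluster genes. They fell in 0 of the 37 Klk and 0 of the 16 Cyp2 genes. The lists were picked with earlier results known, so no enrichment is read from these counts. None of 1048 promoter sites of the 11 transcription factor genes was called. Six5 held 19 trio-absent positions, and Dbp, a circadian factor, 7 trio-present positions.

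Of 56 Zfp symbols, 36 had promoter sites, 34 of them with a Wt mean under 10%, and 12 of 1090 sites were called (1.10%), 3 higher in Tg and 9 of the 12 in Zfp541. Trio-absent positions fell in the promoter or body of 8 (14.3%) and trio-present positions in 9 (16.1%), near the shares of protein-coding genes, for example 11 trio-absent in Zfp715 and 11 trio-present in Zfp74. The 37 Klk, 16 Cyp2 and 14 Vmn2r symbols had promoter sites in all animals for 1 gene each, and the 16 Ceacam, 14 Psg and 88 Vmn1r symbols for none. The call for 1 of 6 Klk sites (16.7%) was in Klk9. Among 4 genes that the study linked to its own DMS on these samples (Inafm1, Zfp382, Prr12 and Lin7b), 0 of 124 promoter sites were called and Wt means were 0.905% to 1.05%, which is no independent evidence. The median difference was 0 points over the sites of the stretch and over those of each of these lists except Klk and Vmn2r.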

How the data were processed

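RRBS libraries were sequenced in paired-end mode and, per the labels, aligned to mm10 with Bismark and read with methylKit (versions not given in the sources used here). The authors deposited counts for each cytosine, namely coverage, methylated and unmethylated counts, with strands apart and a minimum of 10 reads. Intervals cover counting error only, since PCR copies of a molecule are not told apart. Members, gene lists and settings were chosen with earlier results of these data known.

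From these counts, each library's factor was the median ratio to the site median over autosomal sites listed in all 12 animals. The expected coverage was that factor times the median scaled coverage of the listing animals. MspI fragments and sequences were read from the mm10 reference and genes from GENCODE vM21. Levels were tested by a logistic regression on genotype and sex, over 980547 sites with Benjamini-Hochberg adjustment, with and without a dispersion per site. Mean levels were tested by exact permutation. The regression and the missing-row search were tested on simulated data. The labels do not say that animals were littermates or shared batches. Positions that a file gave more than once (11) were dropped. Named fragments and switch sites were 1 per 3-Mb bin, by highest depth-scaled coverage among fragments lacking in an animal, and by largest range of levels with the opposite strand listed; 25 Mb and the trio were set after values were seen. Alternatives were other coverage minimums, level limits and models, summed strands, the 7 animals labelled female, and each animal left out. Python 3.11.15, numpy 2.4.6 and scipy 1.17.1 were used. A withheld item is not reported here.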

Additional observations from a re-analysis of the deposited data

Results flagged for a closer look

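In all, 5 values per animal were examined for single animals that stand apart, in 20 groups of 4 or 8 animals, and 5 gaps passed Dixon's critical value, which chance passes in about 1 group in 20. The stretch was chosen on missing rows and Tg male 2 belongs to the trio, so for these shares the gaps are a description and no test. Among the Wt animals, Wt female 2 had a missing share of 8.60% in the stretch, with the next at 2.70%, and 8.18% on the rest of chromosome 7, with the next at 1.11%, so it stood apart in both places. Among the Tg animals, Tg male 2, a member of the trio, had a missing share of 3.39% in the stretch, with the next at 1.86%, and an excess over the rest of chromosome 7 of 2.03 points, with the next at 0.920. Among the Tg males, Tg male 3 had a mean methylation level of 7.83% in the stretch, with the next at 7.39%.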

How the results depend on the processing

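The missing share depended on the coverage asked for. The difference of Tg minus Wt was -5.08 points with at least 20 expected reads and -0.714 with at least 50, and the excess over the rest of chromosome 7 was 2.01 points with at least 20 and 0.458 with at least 50. Leaving out 1 animal gave -3.14 to -1.06 points and 0.671 to 1.06 points. Switch sites per 1000 were 0.474 with at least 20 reads in every animal, 25.3 with limits of 70% and 30% and 2.17 with 90% and 10%, and 8.72 to 10.8 without 1 animal. The difference in mean level turned to 0.264 points when weighted by reads (exact p = 0.206) and ran from -0.154 to 0.219 without 1 animal (exact p of 0.345 to 0.988). These p-values too are no independent test, since levels entered the choice of the stretch. The binomial model called 11 sites at 25 points (0.0583%, beside 0.0775% of all sites) and 37 with at least 20 reads (0.585%, beside 0.475%). In the 7 animals labelled female it called 735 (3.62%, beside 2.56%). Leaving out 1 animal gave 371 without Tg female 1 (1.97%, beside 1.59%) to 617 without Tg female 4 (2.82%, beside 2.25%). The overdispersion model called 0 in each alternative. Chosen after seeing the data, trio-absent positions numbered 1640 and 128 with at least 20 and 50 expected reads and 240 with Tg male 4 added. Trio-present positions numbered 1667 and 122 with at least 20 and 50. They numbered 620 without the library labelled Wt male, against 600 in the main setting. No paired analysis was possible because the labels carry no replicate numbers shared between groups.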
